A study of Mus musculus with 6 samples.

Results

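The 10 genes described here control fat cell formation and fat storage, and were followed in cultured mouse bone marrow stromal cells. They were the rows of the deposited table whose gene name was Pparg, Cebpa, Cebpb, Cebpd, Plin2, Dgat2, Fabp4, Fabp5, Lpl or Pnpla2, which makes 10 of the 55401 genes listed. The cells were mesenchymal stromal cells, a plastic-adherent population of connective tissue progenitors flushed from the femur of C57/B6J mice. One group of 3 libraries came from WT cells and the other group of 3 from NLRP3 knockout cells (NLRP3-/-), which lack the sensor of an inflammasome, and both groups had been exposed to 3 µg/mL LPS (lipopolysaccharide, a component of the bacterial outer membrane) for 24 h. Unexposed cells were not analysed here, so the values compare genotypes under LPS and do not measure a response to LPS. The labels do not say how many animals, cultures or clones stand behind the 3 libraries of a genotype, so each p-value reflects variation among the sequenced libraries, and that variation may be purely technical.

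Fat cells arise from stromal progenitors through a cascade of transcription factors. The basic leucine zipper proteins C/EBPβ (Cebpb) and C/EBPδ (Cebpd) act early and induce C/EBPα (Cebpa) and the nuclear receptor PPARγ (Pparg), which maintain each other's expression and switch on genes of fat storage. Among these genes, Lpl encodes lipoprotein lipase, which releases fatty acids outside the cell, Fabp4 and Fabp5 encode carriers that bind fatty acids inside it, Dgat2 encodes the enzyme of the last step of triacylglycerol synthesis, Plin2 encodes a coat protein of the lipid droplet, and Pnpla2 encodes the lipase that begins droplet breakdown. Marrow stroma can form fat cells, and several of these genes are also expressed by macrophages, a cell type that adheres to plastic alongside stromal cells.

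Promoter sequence was examined for the genes at the centre of that loop, because Cebpa and Pparg were both higher in the knockout libraries, as given below. RefSeq windows of build GRCm38.p6, reaching from 250 bases before to 50 bases after a transcript start, were matched by symbol for 5 of the 10 genes, with 7 windows in all. No window was matched for Cebpd, Dgat2, Fabp4, Fabp5 or Lpl. The 250 bases before the start are shown 5′ to 3′ for Cebpa (chr7:35119043-35119292, plus strand), for the downstream start of Pparg (chr6:115421816-115422065, plus strand), which lies inside the gene, and for Cebpb (chr2:167688665-167688914, plus strand), whose level lay lower in the knockout libraries. Capitals mark matches to TTGCNNAA, a loose form of the C/EBP site, or to TTGCGCCA, a variant that was chosen after the Cebpa sequence had been read.
Cebpa: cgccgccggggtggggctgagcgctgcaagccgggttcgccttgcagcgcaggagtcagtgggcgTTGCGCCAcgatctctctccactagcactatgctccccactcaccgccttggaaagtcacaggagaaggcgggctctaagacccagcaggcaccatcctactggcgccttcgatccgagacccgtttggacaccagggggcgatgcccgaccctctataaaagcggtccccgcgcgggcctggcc
Pparg, downstream start: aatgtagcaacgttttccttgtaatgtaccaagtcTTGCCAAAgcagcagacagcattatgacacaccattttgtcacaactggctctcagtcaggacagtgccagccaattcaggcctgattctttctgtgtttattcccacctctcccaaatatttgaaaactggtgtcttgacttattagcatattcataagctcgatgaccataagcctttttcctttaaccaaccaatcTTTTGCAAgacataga
Cebpb: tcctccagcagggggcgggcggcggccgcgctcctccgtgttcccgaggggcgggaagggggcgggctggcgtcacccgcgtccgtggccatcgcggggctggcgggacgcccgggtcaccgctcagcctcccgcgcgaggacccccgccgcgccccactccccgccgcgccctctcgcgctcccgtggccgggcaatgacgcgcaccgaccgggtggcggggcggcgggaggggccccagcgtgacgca

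The Cebpa window held TTGCGCCA with its first base 185 bases before the start. Because this variant was read from that window, the match was certain. Of the 32851 RefSeq windows of the same length, 0.301% held it on either strand, which does not make the Cebpa match informative. The downstream Pparg window held TTGCNNAA with first bases 215 and 16 bases before the start, the second on the minus strand, and 10.8% of all windows held at least 1 match. Neither C/EBP pattern was found in the Cebpb window or in the other 4 windows of these genes. No other variant that departs from TTGCNNAA was sought. The C/EBP palindrome TTGCGCAA, itself a case of TTGCNNAA and present in 0.183% of all windows, and the PPAR-RXR element, a direct repeat of AGGNCA spaced by 1 base and present in 0.381%, had no match in the 7 windows. A loose NF-κB pattern, GGGA and CC with any 4 bases between them, matched in the Cebpb, Pnpla2 and middle Pparg windows and in 20.7% of all windows. These matches describe letters only, and binding was not measured.

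Libraries held 53157580 to 66298470 estimated counts, at about 4 counts per fragment. Nlrp3 had 2.76, 1.68 and 1.86 FPKM (fragments scaled by transcript length and sequencing depth) in WT replicates 1, 2 and 3 and no count in the knockout libraries, as labelled. Replicates of a genotype correlated at 0.973 to 0.985 on log2(FPKM + 1) and libraries of different genotypes at 0.943 to 0.952. The limma test took genes that reached 1 FPKM in 3 or more libraries, and a gene is called here at an adjusted p under 0.05, with Benjamini-Hochberg adjustment over all 12136 tested genes. Called genes made up 19.6% of those tested, 10.4% higher and 9.2% lower in the knockout libraries. A gene below 1 FPKM in all libraries of 1 genotype could enter the test only through the other genotype.

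The 10 genes did not share 1 direction. In limma, 7 of the 10 passed the expression filter, 2 of them rose in the knockout libraries (Cebpa and Dgat2) and none fell, although 3 were lower at an unadjusted p under 0.05. That is 28.6% of the 7, against 19.6% of all tested genes, so the number called was not far from the background. The median log2 fold change of the 7 was 0.06, beside 0.01 over all tested genes. Pparg, Fabp4 and Lpl were below the filter and were tested only in fits that keep lower genes. Applied to the estimated counts, edgeR's quasi-likelihood test covered all 10 and called 3 higher (Pparg, Cebpa and Dgat2) and 1 lower (Lpl). Of its 17479 genes it called 16.6%, with 8.48% higher and 8.12% lower. FPKM values of the genotypes did not overlap for 8 of the 10, with 4 higher and 4 lower, and the same held for 34.4% of the genes in the edgeR fit and 36.7% of those in the limma fit. The plot of FPKM by library shows all values.

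**Figure D1:**
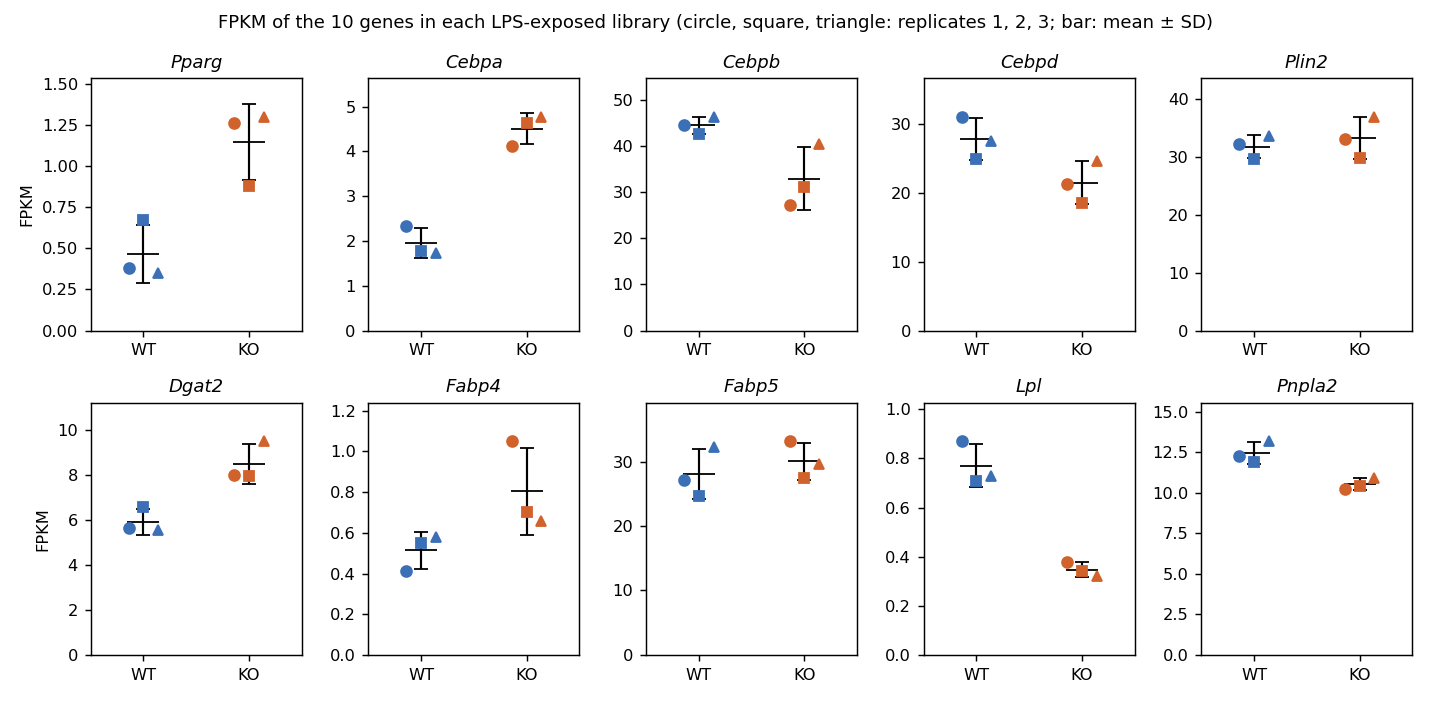
Each panel plots FPKM (vertical axis, from 0) of 1 gene in the 3 WT and 3 knockout (KO) libraries, with circle, square and triangle for replicates 1, 2 and 3 and a bar for the mean ± SD. The groups separate for every gene shown except Plin2 and Fabp5, with Pparg, Cebpa, Dgat2 and Fabp4 higher and Cebpb, Cebpd, Lpl and Pnpla2 lower in the knockout libraries.

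Cebpa rose in the knockout libraries. Cebpa (ENSMUSG00000034957, GRCm38 chromosome 7, 35119293 to 35121928, plus strand) stood at 2.33, 1.78 and 1.73 FPKM in WT replicates 1, 2 and 3 and at 4.11, 4.64 and 4.77 FPKM in knockout replicates 1, 2 and 3. Every knockout library lay above every WT library. The mean rose from 1.95 ± 0.333 (SD, n = 3) to 4.51 ± 0.35 FPKM (SD, n = 3), a ratio of 2.32. As log2(FPKM + 1), a scale on which low genes show less than their true change, the difference was 0.91 ± 0.11 (SE), with an adjusted p of 0.0015 in limma. The levels rest on 268 to 400 estimated counts per WT library and 764 to 826 per knockout library. The call was made in each of the 14 alternative fits that included the gene, with adjusted p-values up to 0.015. The summed FPKM of 32 listed macrophage markers was 847 to 963.7 in WT and 1892 to 2161 in knockout libraries, and its part in the Cebpa difference was not tested.

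Pparg, the partner of Cebpa in maintaining the fat cell state, was low in all libraries. Its level was 0.38, 0.67 and 0.35 FPKM in WT replicates 1, 2 and 3 and 1.26, 0.88 and 1.3 FPKM in knockout replicates 1, 2 and 3. The groups did not overlap, although WT replicate 2 and knockout replicate 2 came close to each other. Since 2 libraries reached 1 FPKM, the gene (ENSMUSG00000000440, chromosome 6, 115360951 to 115490399, plus strand) did not enter the limma test. The exact two-sided permutation test on FPKM gave p = 0.1, which is as low as a 3 against 3 design can reach. On estimated counts, 62 to 146 per WT library and 169 to 264 per knockout library, edgeR gave a log2 fold change of 1.27 with an adjusted p of 0.0311, and DESeq2 gave 1.28 with an adjusted p of 0.0021. Limma without the filter gave an adjusted p of 0.0576. The table gives 1 value per gene, so transcripts from the different Pparg starts could not be told apart.

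The early factors Cebpb and Cebpd were far more abundant and lay lower in the knockout libraries without passing the test. Cebpb (ENSMUSG00000056501, chromosome 2, 167688915 to 167690418, plus strand) was at 44.5, 42.6 and 46.3 FPKM in WT replicates 1, 2 and 3 and at 27.2, 31.2 and 40.5 FPKM in knockout replicates 1, 2 and 3. The knockout libraries were all below the WT libraries but spread widely, with replicate 3 nearest to WT. The log2 difference was -0.44 (95% interval -0.78 to -0.10), with an adjusted p of 0.0798 in limma and 0.104 in edgeR, and DESeq2 gave 0.0459. Without knockout replicate 3, limma gave an adjusted p of 0.00619 at a log2 difference of -0.59. With any other library left out, the adjusted p in limma was 0.142 to 0.202. Leaving out knockout replicate 3 also raised the calls over all genes, from 1264 to 1685 higher and from 1117 to 1314 lower.

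Cebpd (ENSMUSG00000071637, chromosome 16, 15887286 to 15891031, plus strand) had the same layout, with 31.0, 24.9 and 27.5 FPKM in WT replicates 1, 2 and 3 and 21.2, 18.5 and 24.7 FPKM in knockout replicates 1, 2 and 3. The nearest libraries of the groups, WT replicate 2 and knockout replicate 3, almost touched. Its log2 difference was -0.36 (95% interval -0.66 to -0.06), with an adjusted p of 0.0986 in limma, and 0.0362 without knockout replicate 3. With any other library left out, the adjusted p in limma was 0.102 to 0.269. Both genes overlap a gene on the opposite strand, Tmem189 for Cebpb (up to 18.8 FPKM) and Spidr for Cebpd (up to 6.31 FPKM). The library kit marked the strand, but whether counting used it is not stated in the labels, so reads of these pairs may have been mixed.

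Within the sum of Cebpa, Cebpb and Cebpd, Cebpa took a larger share in the knockout libraries. Cebpg, a further C/EBP gene, was not in the sum and stood at 7.58 ± 0.83 FPKM in WT and 7.62 ± 0.38 FPKM in knockout libraries. The values of Cebpb and Cebpd may also hold reads of the overlapping genes given above. Cebpa made up 2.99%, 2.57% and 2.29% of the summed FPKM of Cebpa, Cebpb and Cebpd in WT replicates 1, 2 and 3. In knockout replicates 1, 2 and 3 it made up 7.83%, 8.54% and 6.82%. The share of Cebpb ranged from 57.2% to 61.4% in WT and from 51.8% to 57.9% in knockout libraries, and that of Cebpd from 36% to 39.8% and from 34% to 40.4%. Among these genes, Cebpb was thus the leading transcript in each library. It exceeded Cebpa by 19.1 to 26.8 times in the WT libraries and by 6.62 to 8.48 times in the knockout libraries. These shares combine genes chosen with earlier results known and received no test.

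**Figure D2:**
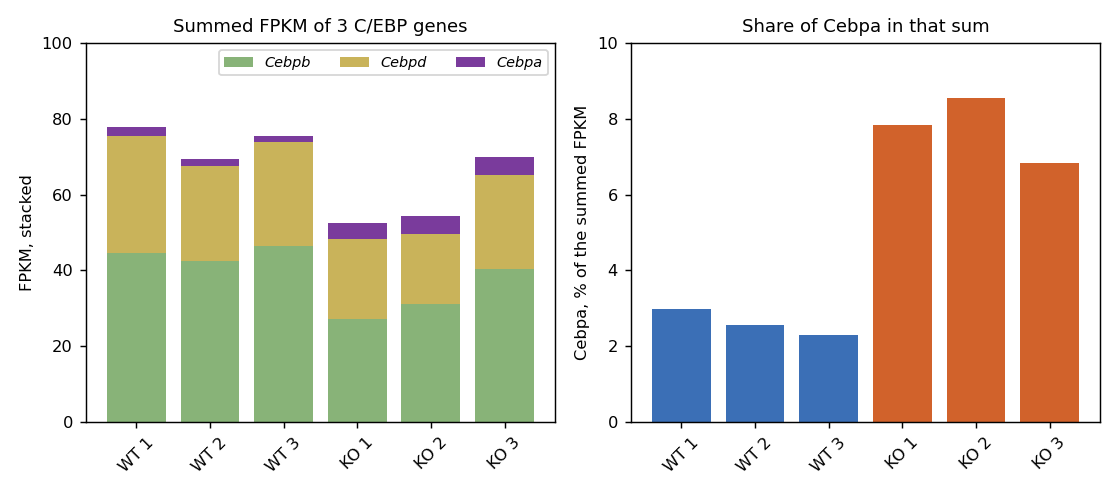
The left panel stacks FPKM of Cebpb, Cebpd and Cebpa for each library, and the right panel gives Cebpa as a percentage of that sum, with WT in blue and knockout in orange. The sum is 69.3 to 77.9 FPKM in WT and 52.5 to 69.9 FPKM in knockout libraries, while the Cebpa share is 2.29% to 2.99% and 6.82% to 8.54%.

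Among the enzymes of storage, Dgat2 rose. Dgat2 (ENSMUSG00000030747, chromosome 7, 99153658 to 99182719, minus strand) was at 5.63, 6.55 and 5.52 FPKM in WT replicates 1, 2 and 3 and at 7.97, 7.95 and 9.48 FPKM in knockout replicates 1, 2 and 3. No knockout library fell within the WT range. Its mean rose from 5.9 ± 0.566 to 8.47 ± 0.878 FPKM (SD, n = 3 each), with a log2 difference of 0.46 ± 0.10 (SE) and an adjusted p of 0.0204 in limma and 0.0347 in edgeR. The call did not hold without WT replicate 1 (adjusted p = 0.0804) or WT replicate 3 (0.0762), or with the replicate number as a block (0.0589). Dgat1, a structurally unrelated enzyme for the same reaction, rose from 4.6 ± 0.132 to 6.09 ± 0.463 FPKM (log2 difference 0.34, adjusted p = 0.0246, limma). It did not pass when any library other than knockout replicate 3 was left out, with adjusted p-values up to 0.0924.

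The droplet coat gene Plin2 was abundant, and no difference between the genotypes was detected. Plin2 (ENSMUSG00000028494, chromosome 4, 86648386 to 86670060, minus strand) was at 32.2, 29.6 and 33.6 FPKM in WT replicates 1, 2 and 3 and at 33.0, 29.8 and 36.9 FPKM in knockout replicates 1, 2 and 3. The ranges overlapped, with 2 knockout libraries inside the WT range and knockout replicate 3 above it. The log2 difference was 0.06 with a 95% interval of -0.17 to 0.29 (adjusted p = 0.713, limma), which bounds the difference without showing that the levels were equal.

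Pnpla2, whose product starts the breakdown of stored triacylglycerol, lay slightly lower in the knockout libraries. Its levels (ENSMUSG00000025509, chromosome 7, 141455198 to 141460743, plus strand) were 12.3, 11.9 and 13.2 FPKM in WT replicates 1, 2 and 3 and 10.2, 10.4 and 10.9 FPKM in knockout replicates 1, 2 and 3. The groups did not overlap, but the difference was small, at -0.22 on the log2 scale (95% interval -0.38 to -0.06), and did not pass (adjusted p = 0.0688 in limma and 0.108 in edgeR). Relative to Pnpla2, Dgat2 was at 0.46, 0.55 and 0.418 of its FPKM in the WT libraries and at 0.779, 0.763 and 0.867 in the knockout libraries. The ratio of these transcripts, 1 for making and 1 for breaking down triacylglycerol, was thus higher in each knockout library than in any WT library. That follows from the values of the separate genes, which moved in opposite directions without overlap. It adds no further result and received no test.

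The fatty acid carriers differed greatly in level. Fabp5 (ENSMUSG00000027533, chromosome 3, 10012548 to 10016607, plus strand) stood at 27.2, 24.6 and 32.2 FPKM in WT replicates 1, 2 and 3 and at 33.2, 27.4 and 29.6 FPKM in knockout replicates 1, 2 and 3. The ranges overlapped, and the log2 difference was 0.10 with a 95% interval of -0.18 to 0.38 (adjusted p = 0.615, limma). GENCODE M21 holds 5 other genes with a stretch of at least 150 bases at 90% identity or more to the longest Fabp5 coding transcript. The highest estimated count of any of them was 38 in a library, against 6303 or more for Fabp5. Whether reads were exchanged between Fabp5 and such copies was not tested.

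Fabp4, the carrier typical of fat cells and also made by macrophages, was barely detected. Fabp4 (ENSMUSG00000062515, chromosome 3, 10204088 to 10208576, minus strand) had 0.41, 0.55 and 0.58 FPKM in WT replicates 1, 2 and 3 and 1.05, 0.7 and 0.66 FPKM in knockout replicates 1, 2 and 3. The groups did not overlap, and knockout replicate 1 stood above the rest. It was below the limma filter, the exact two-sided permutation test gave p = 0.1, the smallest value possible, and edgeR on 121 to 333 estimated counts gave a log2 fold change of 0.62 with an adjusted p of 0.153. In FPKM, Fabp5 exceeded Fabp4 by 44.8 to 66.3 times in the WT libraries and by 31.6 to 44.8 times in the knockout libraries, ranges that meet at 44.8.

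Lpl ran opposite to Pparg and Cebpa. Lpl (ENSMUSG00000015568, chromosome 8, 68880491 to 68906934, plus strand) had 0.87, 0.71 and 0.73 FPKM in WT replicates 1, 2 and 3 and 0.38, 0.34 and 0.32 FPKM in knockout replicates 1, 2 and 3. The groups were well apart, with WT levels 2.22 times the knockout levels on average. All 6 libraries were below 1 FPKM, so the gene was not in the limma test, and the exact two-sided permutation test gave p = 0.1, the smallest value possible. On estimated counts, 455 to 594 in WT and 224 to 279 in knockout libraries, edgeR gave a log2 fold change of -1.17 with an adjusted p of 0.00172, and limma without the filter gave an adjusted p of 0.0199. Its longest coding transcript shares stretches of 150 to 153 bases at about 90% identity with other genes, and reads from such stretches are uncertain.

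**Figure D3:**
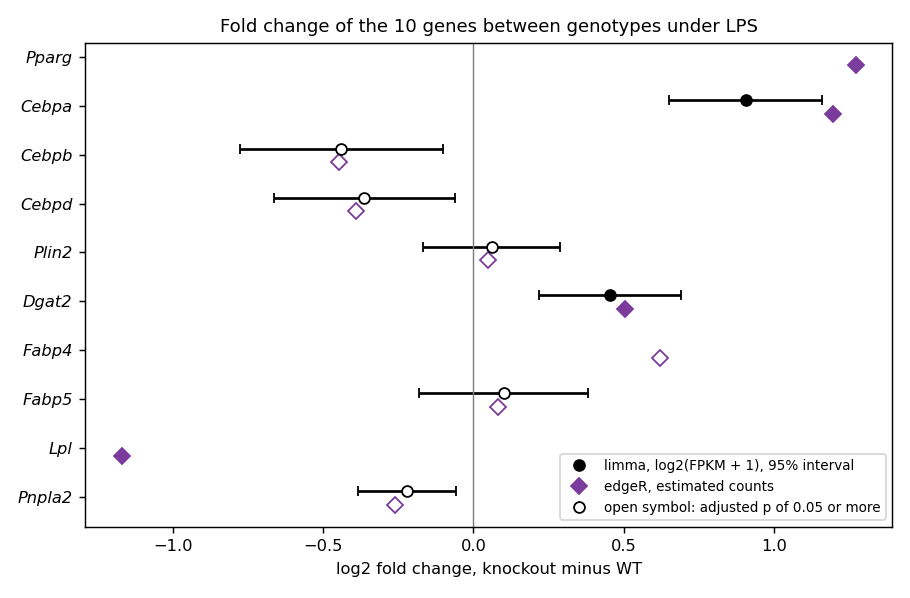
The horizontal axis gives the log2 fold change, knockout minus WT, for each gene, as circles with 95% intervals from limma on log2(FPKM + 1) and as diamonds from edgeR on estimated counts, with filled symbols at an adjusted p under 0.05. Pparg, Fabp4 and Lpl have no circle because they were below the limma filter, and Cebpa and Dgat2 are filled in both tests.

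In order of mean FPKM, Cebpb led in the WT libraries (44.5), followed by Plin2 (31.8), Fabp5 (28.0), Cebpd (27.8), Pnpla2 (12.5), Dgat2 (5.9), Cebpa (1.95), Lpl (0.77), Fabp4 (0.513) and Pparg (0.467). The neighbours Plin2, Fabp5 and Cebpd overlapped in their WT values, as did Fabp4 and Pparg. In the knockout libraries the order was Plin2 (33.2), Cebpb (33.0), Fabp5 (30.0), Cebpd (21.4), Pnpla2 (10.5), Dgat2 (8.47), Cebpa (4.51), Pparg (1.15), Fabp4 (0.803) and Lpl (0.347). Plin2, Cebpb and Fabp5 overlapped there, as did Pparg and Fabp4. The positions of Pparg and Lpl at the bottom of the list were exchanged between the genotypes.

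Markers of mature fat cells were absent or low in both genotypes. Of 18 listed markers none passed the expression filter, and 7 had no count in any library, among them the adipokine genes Adipoq and Lep and the droplet genes Plin1 and Cidec. A count of 0 allows up to 3 fragments, or 12 estimated counts, per library, for counting error only. Retn and Cfd had 5 and 4 estimated counts in WT replicate 2 and none elsewhere. The hormone-sensitive lipase gene Lipe, named after its values were seen, was the most abundant of the 18, at 0.92 to 1.2 FPKM in WT and 0.85 to 0.95 FPKM in knockout libraries. Pck1, named in the same way, followed at 0.41 to 0.99 FPKM in WT and 0.35 to 0.78 FPKM in knockout libraries. The higher Cebpa values of the knockout libraries were therefore measured in libraries in which Adipoq, Lep, Plin1 and Cidec had no count.

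Stromal and macrophage markers both differed between the genotypes. Of 21 tested stromal markers 11 fell, 4 rose and 6 did not pass, or 71.4% called against 19.6% of all tested genes. Pdgfra, a receptor that marks adipogenic progenitors among others, fell from 30.2 ± 1.71 to 2.96 ± 0.227 FPKM (log2 difference -2.98, adjusted p = 3.75e-06, limma), whereas Pdgfrb fell from 89.0 ± 4 to 62.0 ± 2.18 FPKM (-0.51, adjusted p = 0.00229). In the other direction, and named after their values were seen, Nt5e, which encodes the stromal surface marker CD73, rose from 0.183 ± 0.0681 to 2.35 ± 0.269 FPKM (adjusted p = 0.000131), and Nes, the nestin gene, rose from 11.1 ± 0.487 to 33.7 ± 1.15 FPKM (adjusted p = 2.4e-05, all limma). Twist1 and Cd200 were the other stromal markers that rose, while Vim, Itgb1, Cd44, S100a4, Alcam and Mcam did not pass. Nt5e and Cd200 were below 1 FPKM in all WT libraries and were tested only because of the knockout libraries. Their calls are to be read with that limit. Of 27 tested macrophage markers 25 rose and none fell, which is the list whose sum is given beside Cebpa. Adgre1, which encodes F4/80, rose 3.05 times in FPKM, Csf1r 2.66 times and Cd68 1.43 times, while Ptprc, which encodes CD45, stood at 0.26 to 0.34 FPKM in WT and 0.49 to 1.1 FPKM in knockout libraries. Pparg and Fabp4 are also expressed by macrophages, and the part of macrophages in their values was not tested. In these bulk libraries, a change in the number of cells of a type cannot be told apart from a change of RNA per cell.

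**Figure D4:**
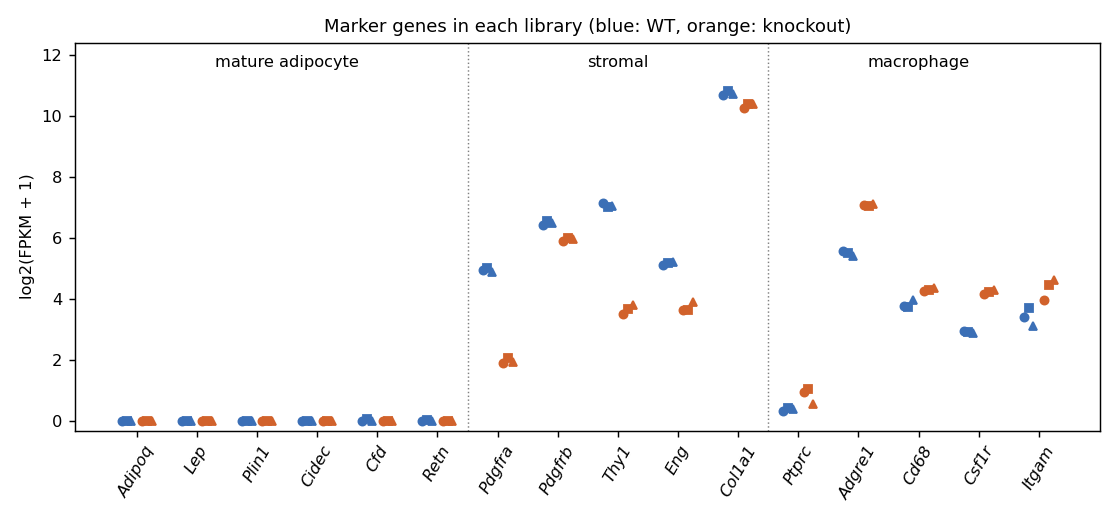
The vertical axis gives log2(FPKM + 1) of marker genes, chosen with earlier results of these data known, in each library. WT is in blue and knockout in orange, with circle, square and triangle for replicates 1, 2 and 3. The 6 fat cell markers lie at or near 0 in all libraries. The 5 stromal markers shown are lower and the 5 macrophage markers shown higher in the knockout libraries. Of the stromal markers that are not shown, 4 rose and 6 did not pass. The call of Col1a1 was made in 1 of the 6 fits with 1 library left out.

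Other genes of the same pathways were listed by role, 142 in all beside the 10, of which 104 were tested. Of these 21 rose and 22 fell, or 41.3% called against 19.6% of all tested genes, and the median log2 fold change was -0.03. The directions thus balanced. Of the 43 calls, 26 (13 higher and 13 lower) were made in each of the 6 fits with 1 library left out. The macrophage markers given above were higher in the same libraries, and their part in these calls was not tested. Some called genes were below 1 FPKM in all libraries of 1 genotype and were tested only because of the other. Among them were G0s2, Bmp4, Wnt10b and Mgll, through the knockout libraries, and Ebf2, Ebf3 and Dlk1, through the WT libraries. Their calls and adjusted p-values are to be read with that limit.

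Among transcription factors and signals that promote adipogenesis, 5 fell and 2 rose of 25 tested, with a median log2 fold change of -0.16. That is 28% called, against 19.6% of all tested genes. The early B cell factors, which act upstream of Pparg and Cebpa in adipogenesis, fell together in this list. Ebf1 fell from 5.99 ± 0.666 to 3.00 ± 0.212 FPKM (adjusted p = 0.00152), Ebf2 from 1.17 ± 0.197 to 0.00667 ± 0.00577 (adjusted p = 0.000412) and Ebf3 from 2.64 ± 0.183 to 0.343 ± 0.0851 (adjusted p = 0.000112, all limma). Srebf1, a regulator of lipid synthesis, fell from 15.7 ± 0.417 to 10.3 ± 0.912 FPKM (adjusted p = 0.00298). In the other direction, Klf4, an early inducer of Cebpb, rose from 8.06 ± 0.788 to 12.6 ± 0.944 FPKM (adjusted p = 0.00533), beside a Cebpb value that lay lower. Bmp4, which commits progenitors to the fat lineage, was at 0, 0.05 and 0 FPKM in WT replicates 1, 2 and 3 and at 8.8, 1.71 and 6.21 FPKM in knockout replicates 1, 2 and 3 (log2 difference 2.5, adjusted p = 0.0089). The spread of Bmp4 among knockout libraries was wide, and no WT library came near it. Rxra, which encodes the partner of PPARγ on DNA, stood at 12.6 ± 0.143 and 10.9 ± 0.99 FPKM and did not pass (adjusted p = 0.14).

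Genes that restrain adipogenesis split evenly, with 5 higher and 5 lower of 24 tested, or 41.7% called against 19.6% of all tested genes. Dlk1, which encodes the preadipocyte inhibitor Pref-1, fell from 4.15 ± 0.18 to 0.357 ± 0.13 FPKM (log2 difference -1.93, adjusted p = 4.41e-05). Gata2, a repressor of Pparg, fell from 4.39 ± 0.399 to 1.58 ± 0.341 FPKM (adjusted p = 0.00124), and Zfp521, an antagonist of Ebf1, from 7.10 ± 2.15 to 1.71 ± 0.159 FPKM (adjusted p = 0.00252). The nuclear receptor gene Nr2f2 fell from 6.36 ± 1.13 to 1.94 ± 0.456 FPKM (adjusted p = 0.00159, all limma). Conversely, Wnt10b, a WNT ligand that blocks induction of Cebpa and Pparg, rose from 0.35 ± 0.1 to 5.53 ± 0.473 FPKM (log2 difference 2.27, adjusted p = 2.54e-05). Runx2, the osteoblast regulator, rose from 3.29 ± 0.146 to 5.69 ± 0.475 FPKM (adjusted p = 0.00224). Ddit3, which encodes the C/EBP partner CHOP, stood at 41.4 ± 2.63 and 45.2 ± 4.05 FPKM and did not pass (adjusted p = 0.411).

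**Figure D5:**
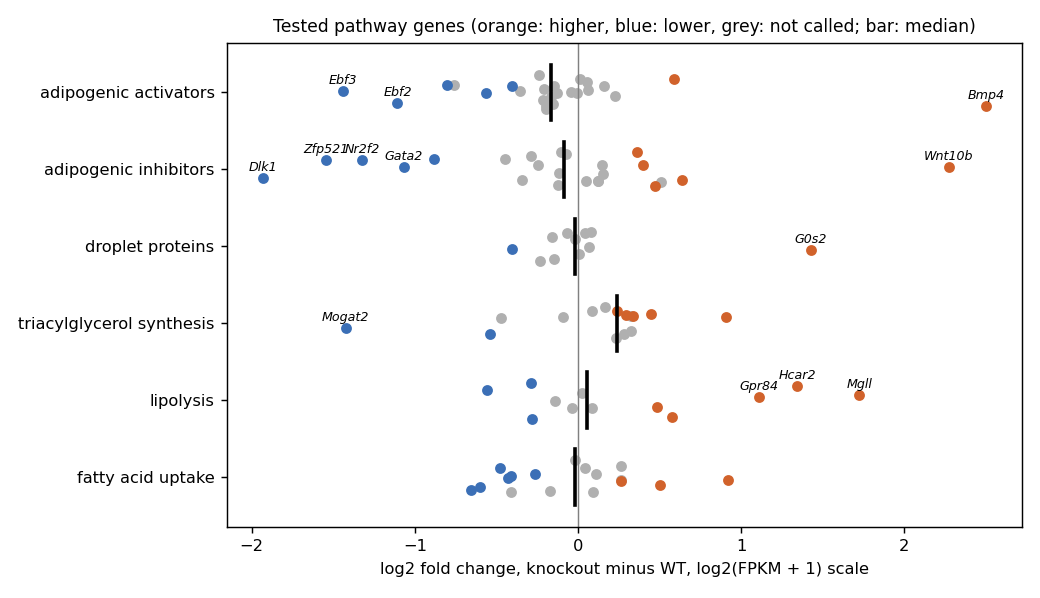
Points give the log2 fold change, knockout minus WT in log2(FPKM + 1), of each tested gene in 6 lists drawn up by role. They are orange where called higher, blue where called lower and grey otherwise, with a bar at the median of each list. Medians lie between -0.16 and 0.24, and single genes such as Bmp4, Wnt10b and Dlk1 lie far from them.

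Of 11 tested droplet protein genes other than Plin2, 1 rose and 1 fell. The share called, 18.2%, was near the 19.6% of all tested genes. G0s2, whose product inhibits the lipase encoded by Pnpla2, rose from 0.27, 0.12 and 0 FPKM in WT replicates 1, 2 and 3 to 1.71, 1.8 and 2.64 FPKM in knockout replicates 1, 2 and 3 (log2 difference 1.43, adjusted p = 0.000966, limma). Its values were low but did not overlap, and it passed the expression filter only through the knockout libraries. Plin3, at 19.3 to 20.6 FPKM in WT libraries, fell to 13.8 to 16.8 FPKM (adjusted p = 0.019), a call that was made in 1 of the 6 fits with 1 library left out, the one without knockout replicate 3. Hilpda, another inhibitor of that lipase, stood at 11.4 ± 1.12 and 11.7 ± 1.21 FPKM (adjusted p = 0.827). Among regulators of lipolysis, Abhd5, the activator of the lipase, was at 5.54 ± 0.214 and 5.66 ± 0.517 FPKM (adjusted p = 0.876).

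In the list for triacylglycerol synthesis, which also holds the sterol acyltransferase gene Soat1, 5 genes rose and 2 fell of 15 tested. That is 46.7% called, against 19.6% of all tested genes, with a median log2 fold change of 0.24. Lpin3, a phosphatidate phosphatase that supplies diacylglycerol, rose from 4.11 ± 0.122 to 8.59 ± 0.36 FPKM (log2 difference 0.91, adjusted p = 0.000242), while its relative Lpin1 fell from 1.94 ± 0.397 to 1.01 ± 0.169 FPKM (adjusted p = 0.028). Mogat2, which makes diacylglycerol from monoacylglycerol, fell from 6.80 ± 0.944 to 1.91 ± 0.367 FPKM (adjusted p = 0.000602, all limma). The call of Lpin1 was lost without WT replicate 2 or 3 and without knockout replicate 1 or 2, with adjusted p-values up to 0.0915. Of the 5 genes that rose, only Lpin3 was called in each of the 6 fits with 1 library left out. Agpat4, Agpat5, Soat1 and Dgat1 were each called in 1 of those fits, with adjusted p-values up to 0.152.

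Among genes of lipolysis and fatty acid use 5 rose and 3 fell of 12 tested, or 66.7% called against 19.6% of all tested genes. Receptors that restrain or sense lipid breakdown products, Hcar2 and Gpr84, rose from 1.28 ± 0.162 to 4.80 ± 0.636 FPKM (adjusted p = 0.000342) and from 4.75 ± 0.0529 to 11.4 ± 0.421 FPKM (adjusted p = 8e-05); macrophages express both. Mgll, the monoacylglycerol lipase, was at 0.1, 0.15 and 0.56 FPKM in WT replicates 1, 2 and 3 and at 1.81, 7.08 and 2.14 FPKM in knockout replicates 1, 2 and 3 (adjusted p = 0.0274), and did not pass when any of the WT libraries was left out, with adjusted p-values up to 0.091. Pdk4, a kinase that spares glucose when fatty acids are burned, rose from 14.5 ± 0.93 to 22.1 ± 0.674 FPKM (adjusted p = 0.00167), and Cpt1a, which admits fatty acids to mitochondria, fell from 12.8 ± 0.845 to 8.34 ± 0.243 FPKM (adjusted p = 0.00217, all limma).

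Partners of lipoprotein lipase and genes of fatty acid uptake gave 3 higher and 6 lower of 17 tested. Called genes made up 52.9% of these, against 19.6% of all tested genes. The scavenger receptor and fatty acid transporter Cd36, a PPARγ target in fat cells and macrophages, rose from 2.30 ± 0.316 to 5.30 ± 1.12 FPKM (log2 difference 0.92, adjusted p = 0.00652). Angptl4, another PPARγ target whose product inhibits lipoprotein lipase, fell from 14.9 ± 2.39 to 9.41 ± 0.28 FPKM (adjusted p = 0.0132), though not without WT replicate 3 (0.0535). The transport proteins Slc27a1 and Slc27a3 fell from 3.26 ± 0.169 to 2.17 ± 0.0379 FPKM (adjusted p = 0.00751) and from 3.07 ± 0.313 to 1.59 ± 0.15 FPKM (adjusted p = 0.00349, all limma).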

How the data were processed

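Polyadenylated RNA of 6 libraries was sequenced. Per the submitters' processing notes, cutadapt 1.9, HISAT2 2.0.4 and StringTie 1.3.4d were used with build GRCm38; no label states the counting step or its strand setting. The authors deposited FPKM per gene, to 2 decimals, and estimated counts per gene, per the file headers. The counts are whole numbers, but 44.4% of those from 1 to 16 were multiples of 4 (25% if even), so they were treated as estimates, with about 4 to a fragment; library totals are in the report.

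In R 4.3.3, limma 3.58.1 (lmFit, eBayes with trend) compared the genotypes, with no other term, for genes that reached 1 FPKM in 3 or more libraries, using log2(FPKM + 1). Tests were two-sided, and p-values were adjusted by Benjamini-Hochberg over all tested genes, with a threshold of 0.05. Alternatives were edgeR 4.0.16 (quasi-likelihood) and DESeq2 1.42.0 on the estimated counts, other filters, a pseudocount of 0.1, TMM scaling, the replicate number as a block and each library left out. The fits were tested on simulated data.

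The members, gene lists (303 entries, all matched, some through an older symbol) and tests were chosen with earlier results of these data known. Text names all 10 members, and markers chosen in the same way. From each pathway list it names called genes out of the 4 per direction with the largest change, but not all of them. Left out were Trib1, Smad3, Sdc1 and Acsl1, which rose, and Lipa, Prkaca and Dbi, which fell. It also names up to 3 uncalled genes per list with the highest level. Dgat1 and Abhd5 fall under this list rule, and Soat1 and Cebpg are named beyond it. Similar transcripts were sought with BLAST 2.17.0 in GENCODE M21. Replicate numbers come from titles that count days, while another label gives day 1 for all.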

Additional observations from a re-analysis of the deposited data

How the results depend on the processing

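Cebpa was called in every alternative fit that tested it, and its log2 fold change ranged from 0.85 to 1.21. Of the 10 genes, Plin2 was the one whose sign changed, to -0.0151 without knockout replicate 3, within a range of -0.0151 to 0.134 with 1 library left out. The number of these genes called higher, 2 in the reported fit, was 1 with a minimum of 5 FPKM, which leaves Cebpa untested, 1 with the replicate block, and 1 to 2 with 1 library left out. The number called lower, 0 in the reported fit, was 1 in limma without a filter, in edgeR, in edgeR without a filter and in edgeR on counts divided by 4 (chosen after seeing the data), each time Lpl, and 2 in DESeq2. It was 0 to 2 with 1 library left out, the 2 being Cebpb and Cebpd without knockout replicate 3. Without any multiple-testing adjustment, 3 of the 7 tested genes were lower at p under 0.05 in limma.

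Of the other pathway genes, 13 rose and 12 fell with a minimum of 5 FPKM, which tests 64 of them, and with 1 library left out 13 to 23 rose and 14 to 23 fell. Over all genes, 817 rose with that minimum, and DESeq2 called 1908 higher and 1776 lower. Leaving out 1 library gave 868 to 1685 higher and 721 to 1314 lower. The reported fit has no block because no label states that the replicate numbers pair the libraries. Same-numbered libraries correlated in their deviations from the group means at 0.0199, 0.168 and 0.0956 for numbers 1, 2 and 3. Libraries with different numbers correlated at -0.171 to 0.0807. These values do not decide whether the numbers pair the libraries. With the block 1106 genes were higher and 980 lower. Depth limits Pparg, Fabp4 and Lpl, which rest on 62 to 594 estimated counts per library.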

Other observations

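Genes that mark the adipogenic reticular cells of mouse marrow, the precursors of its fat cells, were at mixed levels. Of 13 listed, 8 were tested, and limma called 4 higher and 4 lower in the knockout libraries, against 19.6% called among all tested genes. These genes are named after their values were seen. Lepr, which encodes the leptin receptor and defines these cells in marrow, was at 0 to 0.01 FPKM in WT and 0.07 to 0.1 FPKM in knockout libraries, and Adipoq had no count. Apoe, a lipid carrier gene that macrophages also express, was at 22.2, 17.8 and 11.3 FPKM in WT replicates 1, 2 and 3 and at 41.6, 70.9 and 89.9 FPKM in knockout replicates 1, 2 and 3 (adjusted p = 0.00861). Foxc1, a transcription factor gene of the marrow niche, was at 4.62 to 5.58 FPKM in WT and 7.73 to 8.34 FPKM in knockout libraries (adjusted p = 0.00388), and Esm1 at 0.21 to 0.34 and 1.46 to 1.73 FPKM (adjusted p = 0.000466). Esm1 passed the expression filter only through the knockout libraries, and its call is to be read with that limit. Vcam1, an adhesion molecule gene, was at 39.1 to 43.2 FPKM in WT and 28.9 to 30.6 FPKM in knockout libraries (adjusted p = 0.00388). Ebf3, given above among the regulators, was lower as well, as were Grem1, a BMP antagonist gene, at 38.0 to 41.7 and 17.9 to 28.8 FPKM (adjusted p = 0.0197), and Hp, the haptoglobin gene, at 81.0 to 99.2 and 55.9 to 72.2 FPKM (adjusted p = 0.0299). The calls of Grem1 and Hp were each made in 2 of the 6 fits with 1 library left out, with adjusted p-values up to 0.0671 and 0.108. Cxcl12, a chemokine gene of the niche, was at 40.6 to 50.2 FPKM in WT and 58.6 to 60.9 FPKM in knockout libraries (adjusted p = 0.0482), a call made in none of those 6 fits (0.0713 to 0.117).

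Genes of the bone lineage, the alternative fate of marrow stroma, gave 5 higher and 2 lower of 7 tested, where 10.4% of all tested genes were higher and 9.2% lower. Beside Runx2, the alkaline phosphatase gene Alpl was at 0.11 to 0.17 FPKM in WT and 1.34 to 1.5 FPKM in knockout libraries (adjusted p = 0.000216, limma). Alpl, which counts among the 5 higher, passed the expression filter only through the knockout libraries, and its call is to be read with that limit. Spp1, which encodes osteopontin and is also expressed by macrophages, was at 1689, 1760 and 1903 FPKM in WT replicates 1, 2 and 3 and at 849.4, 843.3 and 632.2 FPKM in knockout replicates 1, 2 and 3 (adjusted p = 0.0018). Markers of mature bone cells were at or near 0, with Bglap at up to 0.12 FPKM, Ibsp at up to 0.08 FPKM and no count of Sost in any library.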
